A study of Homo sapiens with 12 samples.

Results

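Hyaluronan is a long, unbranched polymer of glucuronic acid and N-acetylglucosamine that cells extrude into the space around them. The HAS enzymes build it at the plasma membrane from UDP-sugars, the HYAL enzymes, CEMIP and CEMIP2 cut it or promote its breakdown, and CD44 is the main receptor that holds it at the cell surface. Epithelial tumour cells often express CD44, and short hyaluronan fragments are known to signal differently from the intact polymer. The genes described here are 8 named members of this system: the synthases HAS2 and HAS3, the hyaluronidases HYAL1, HYAL2 and HYAL3, the hyaluronan-depolymerising proteins CEMIP and CEMIP2, and CD44. They were listed by name and not ranked by a measured value, but earlier results of these data were known when they were chosen. They are 8 of the 60617 genes in the data. All 8 were among the 17620 genes that passed the expression filter.

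RNA was measured by sequencing in SNU308 cells, a line from human gallbladder cancer labelled as wild type (WT), with 12 samples in all. Of these, 4 replicates received a non-targeting control siRNA (NTC), 4 received siCEACAM6#2 and 4 received siCEACAM6#3, each at 25 nM, and RNA was taken after 3 days. CEACAM6, the siRNA target, is a glycosylphosphatidylinositol-anchored adhesion molecule of the carcinoembryonic antigen family. The transcripts were lowered for a short time in 1 cell line, no hyaluronan was measured, and the labels do not say whether replicates were separate cultures, so p-values cover the spread between these samples, which may be technical.

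The libraries held 21799476 to 22059456 estimated counts each. All 9 biliary epithelial markers were expressed, with a summed level of 8299 to 8891 TPM (an abundance scaled for transcript length and depth, which allows genes to be compared) in NTC. Of 17 fibroblast, leukocyte and endothelial markers, 13 had a mean under 1 TPM in NTC. CEACAM6 fell by 0.82 on the log2 scale with siCEACAM6#2 (SE 0.07, limma-voom adjusted p = 2.71e-05) and fell by 0.46 with siCEACAM6#3 (SE 0.07, adjusted p = 0.0151). The second of these calls was lost when any of 4 single libraries was left out (NTC replicates 2, 3 and 4 and siCEACAM6#3 replicate 3), where the adjusted p reached up to 0.0792. It was kept in 12 of 13 other settings and lost on log2(TPM + 1) with no low-count filter (limma adjusted p = 0.175). The mitochondrial share of the counts was 11.8% to 12.9% for NTC and 12.2% to 13.3% for siCEACAM6#2. It was 12.5%, 15.3%, 14.3% and 14.6% in siCEACAM6#3 replicates 1 to 4.

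The target sites are shown because a guide strand can also pair through its seed, guide positions 2 to 8, with other transcripts. The guide sequence was assumed to be the exact reverse complement of each designed target, and capitals mark the 7 bases that pair with the seed. Both targets are 21 bases long and lie on the plus strand in exon 6 of 6 of the canonical CEACAM6 transcript, in its 3′ UTR, at chr19:41771369-41771389 and chr19:41771611-41771631 (GRCh38, GENCODE 44).
siCEACAM6#2: cagccatgcaatgCCAAATAa
siCEACAM6#3: ctcctaatagtcaTACTAGTa
The seed-match site of siCEACAM6#2, CCAAATA, occurred in the canonical 3′ UTR of none of the 8 genes, against 15.6% of the 13747 tested genes with an annotated 3′ UTR. The site of siCEACAM6#3, TACTAGT, occurred in 6.63% of those UTRs and in 1 of the 8 genes, CD44. Only the transcript strand was searched. The CD44 site lies at position 466 of a 3069-base 3′ UTR, and the window around it, in the direction of the transcript, is chr11:35229788-35229816 on the plus strand.
CD44: gggttggggtgTACTAGTtacacatcttc
These matches describe letters in the annotated transcripts and do not show that a guide bound them.

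The levels of the 8 genes in NTC were spread widely. CD44 led with 349 TPM ± 7.49 (SD, n = 4), which placed it 311th among all genes. HAS3 followed at 84.4 TPM ± 11.5 and HYAL2 at 40.5 TPM ± 0.722. HYAL3 stood at 13.1 TPM ± 1.23 and CEMIP2 at 7.13 TPM ± 0.594. The lowest levels were those of HAS2 (3.99 TPM ± 0.15), CEMIP (3.81 TPM ± 0.334) and HYAL1 (2.32 TPM ± 0.287). Every neighbouring pair in this order was separated in all NTC replicates except HAS2 and CEMIP, whose replicates overlapped. With siCEACAM6#2 the replicates of HYAL3 and CEMIP2 overlapped as well, and with siCEACAM6#3 only those of CEMIP and HAS2 overlapped. HAS1, the remaining synthase, had no count in any NTC sample, and a count of 0 in a single library allows an expected count of up to 3. Its highest count was 1 with siCEACAM6#2 and 2 with siCEACAM6#3. HAS3 made up 94.8% to 97.8% of the summed synthase TPM in the 12 samples. HYAL2 made up 70.2% to 81.8% of the summed TPM of HYAL1, HYAL2 and HYAL3.

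**Figure D1:**
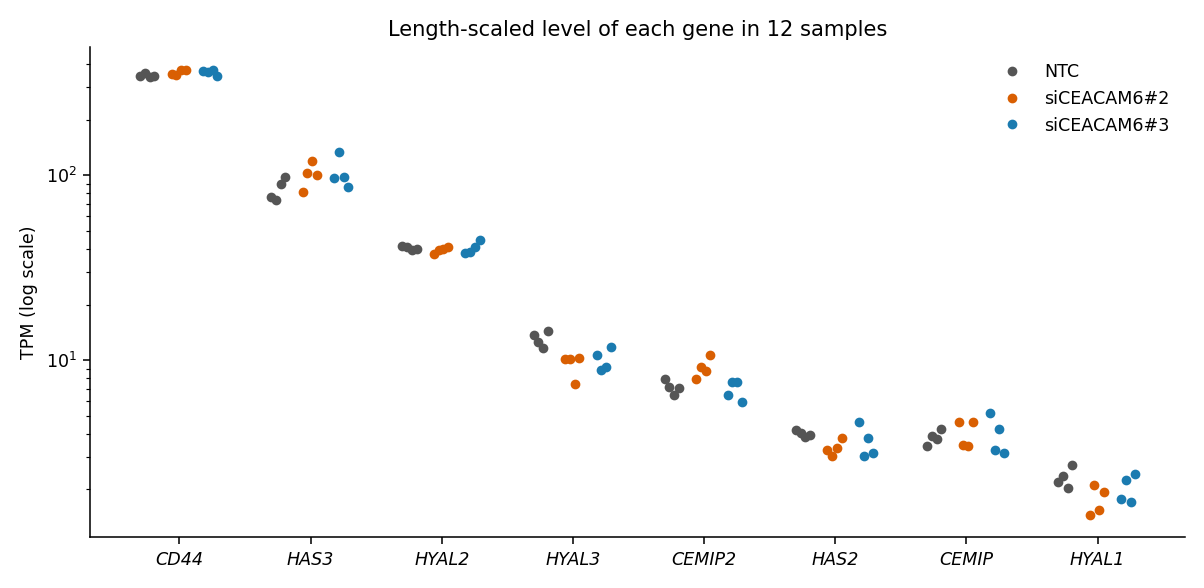
TPM on a log axis for the 8 genes, with 1 dot per sample and 1 colour per group (n = 4 each). CD44 lies between 343 and 374 TPM in all 12 samples, and HYAL1 lies between 1.45 and 2.7 TPM.

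Comparison of each siRNA with NTC asked whether lowering CEACAM6 was accompanied by a change in these transcripts. With siCEACAM6#2, limma-voom called 0 of the 8 genes at an adjusted p under 0.05 (background: 1.25% of all genes tested), while 3 of them, CEMIP2, HAS2 and HAS3, had an unadjusted p under 0.05 (background: 13.6%). With siCEACAM6#3, 0 of 8 were called (background: 0.0681%) and only HAS3 had an unadjusted p under 0.05 (background: 12.5%). The average of both siRNAs also gave 0 calls (background: 0.227%) and HAS3 alone under 0.05 before adjustment (background: 12.9%). The edgeR quasi-likelihood test called 0 of 8 in all 3 comparisons (backgrounds: 1.44%, 0.0738% and 0.312%). DESeq2 called 1, CEMIP2 with siCEACAM6#2 (background: 3.95% of the genes given an adjusted p). These 3 comparisons use the same NTC samples and are not independent. In such bulk samples, fewer cells with a transcript and less of it per cell cannot be told apart. Between the siRNAs, 1 of 8 was called, CEMIP2, which was lower with siCEACAM6#3 (background: 1.47% in either direction and 0.63% lower), and it was also the 1 gene with an unadjusted p under 0.05 (background: 13.3%). The median log2 fold change of the 8 genes was 0.00 with siCEACAM6#2, 0.00 with siCEACAM6#3 and 0.07 between the siRNAs, where it was 0.00 over all genes in each.

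**Figure D2:**
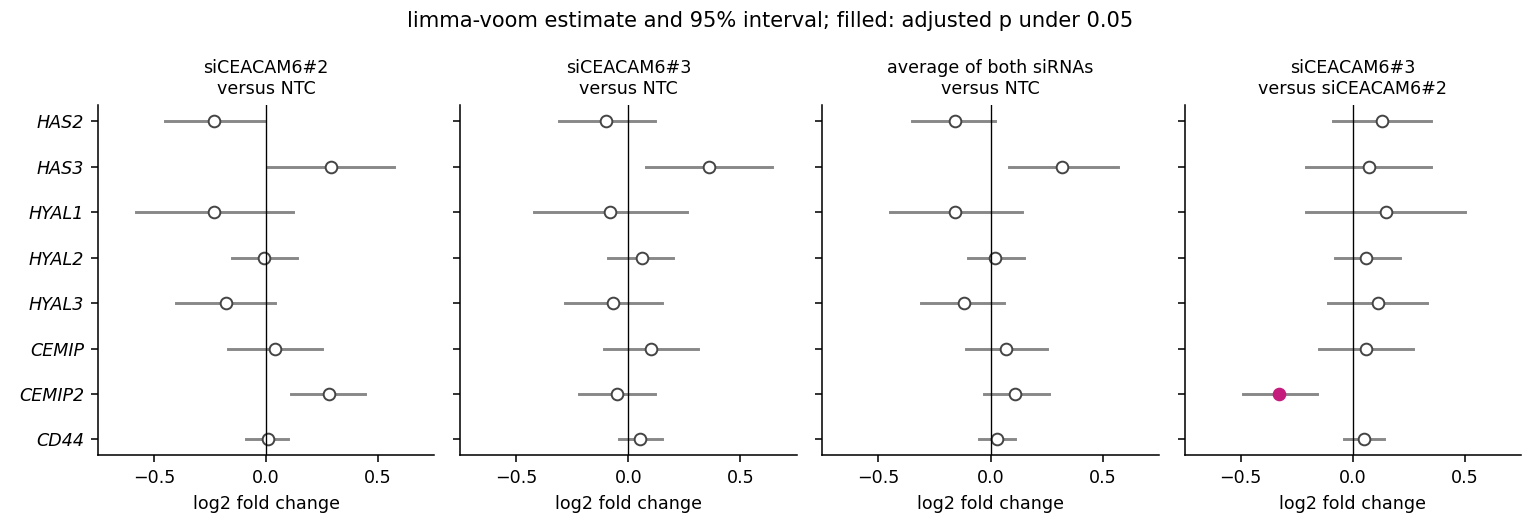
Log2 fold change (dot) and 95% interval (line) of the 8 genes in 4 comparisons from limma-voom, with filled dots for an adjusted p under 0.05. The filled dot is CEMIP2 between the siRNAs at -0.33, and the intervals of HAS3 against NTC lie above 0 although no call was made.

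HAS3 encodes the synthase that made up nearly all synthase transcript here. Its level was 197, 198, 241 and 261 CPM (the count scaled to library size) in NTC replicates 1 to 4. It was 225, 292, 324 and 256 CPM with siCEACAM6#2 and 248, 380, 279 and 253 CPM with siCEACAM6#3. The groups overlapped, and NTC replicate 4 lay above the lowest samples of both siRNAs. The log2 fold change was 0.29 with siCEACAM6#2 (SE 0.13, 95% interval 0.01 to 0.57, adjusted p = 0.358) and 0.36 with siCEACAM6#3 (SE 0.13, interval 0.08 to 0.64, adjusted p = 0.288). The average of both siRNAs gave 0.32 (SE 0.12, interval 0.08 to 0.57), with an unadjusted p of 0.0129 and an adjusted p of 0.244 in limma-voom. HAS3 varied more within groups than 98.1% of the 9890 genes with a mean of at least 10 CPM. The highest value, 380 CPM, came from siCEACAM6#3 replicate 2, which also had the highest mitochondrial share, and the part of that share in the result was not tested. Without this library the log2 fold change with siCEACAM6#3 was 0.22, with an adjusted p of 0.607. HAS3 lies on chromosome 16 at 69105653 to 69118719 on the plus strand (GRCh38) and overlaps CHTF8 and DERPC on the opposite strand.

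HAS2 encodes the synthase best known for long hyaluronan chains, and in these cells it was a minor transcript. Its level was 13.3, 12.8, 12.9 and 12.8 CPM in NTC, 10.9, 10.2, 11.1 and 12.1 CPM with siCEACAM6#2, and 14.9, 10.2, 12.7 and 10.9 CPM with siCEACAM6#3. Every siCEACAM6#2 sample lay below every NTC sample, which held in this direction for 5.42% of all genes tested, while the siCEACAM6#3 samples lay on both sides of NTC. The log2 fold change with siCEACAM6#2 was -0.23 (SE 0.10, interval -0.45 to -0.01), with an unadjusted p of 0.0418 and an adjusted p of 0.345, so HAS2 was not called. It was -0.10 with siCEACAM6#3 (SE 0.10, interval -0.31 to 0.12, adjusted p = 0.724). The siCEACAM6#3 value was -0.20 without siCEACAM6#3 replicate 1, the highest sample (adjusted p = 0.253), -0.02 without replicate 2, the lowest (adjusted p = 0.972), and -0.05 without replicate 4 (adjusted p = 0.854). HAS2, on chromosome 8, shares its locus with the antisense transcript HAS2-AS1. The ratio of HAS3 to HAS2 in TPM ran from 18.3 to 25.1 in the NTC samples. It ran from 24.8 to 35.7 for siCEACAM6#2 and from 20.9 to 44.4 for siCEACAM6#3, so the ranges overlapped.

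**Figure D3:**
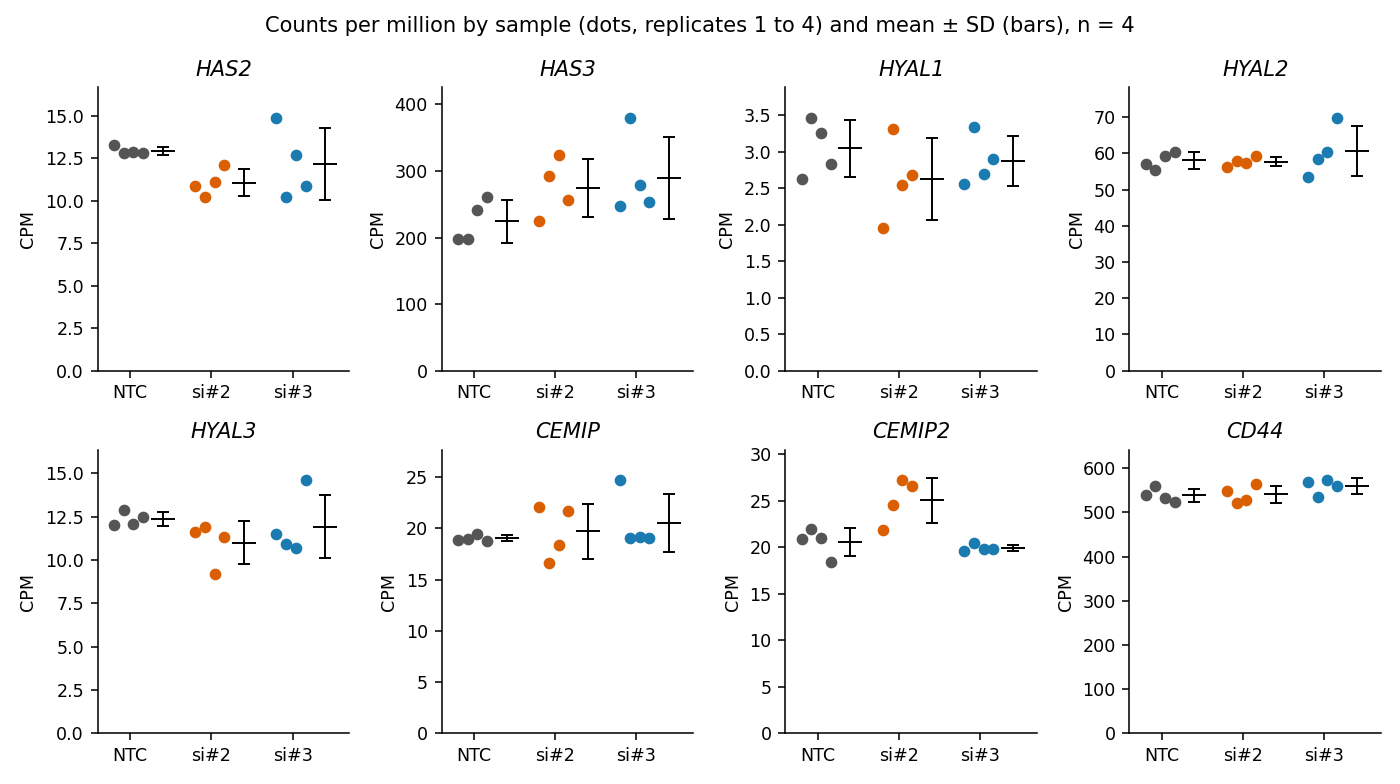
CPM of the 8 genes by sample, with replicates 1 to 4 from left to right as dots and the group mean ± SD as a bar (n = 4; si#2 and si#3 stand for the CEACAM6 siRNAs). CEMIP2 with siCEACAM6#2 (21.8 to 27.2 CPM) lies above CEMIP2 with siCEACAM6#3 (19.6 to 20.4 CPM), and the HAS3 groups overlap.

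HYAL1, HYAL2 and HYAL3 stand side by side on the minus strand of chromosome 3. HYAL3 (50292831 to 50299405) is followed after 484 bases by HYAL1 (50299890 to 50312381) and after another 5408 bases by HYAL2 (50317790 to 50322782). HYAL2, a cell-surface enzyme that cuts long hyaluronan, was the main hyaluronidase transcript. Its level was 57, 55.5, 59.4 and 60.5 CPM in NTC, 56.3, 58, 57.5 and 59.2 CPM with siCEACAM6#2, and 53.6, 58.5, 60.5 and 69.9 CPM with siCEACAM6#3. The groups overlapped throughout, and siCEACAM6#3 replicate 4 was the highest sample. The log2 fold change was -0.01 with siCEACAM6#2 (interval -0.15 to 0.14, adjusted p = 0.98) and 0.06 with siCEACAM6#3 (interval -0.09 to 0.20, adjusted p = 0.777). Expressed as percent change, the lowest bound of these intervals was -9.93% and the highest was 14.8%. HYAL2 shares 509 of its 4421 annotated exon bases with TUSC2 on the same strand, and the part of this overlap in the values was not tested.

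HYAL1, the lysosomal enzyme that digests hyaluronan fragments, was the least abundant of the 8, with 43 to 78 counts per sample. It reached 2.63, 3.47, 3.26 and 2.83 CPM in NTC, 1.95, 3.32, 2.55 and 2.69 CPM with siCEACAM6#2, and 2.56, 3.34, 2.7 and 2.9 CPM with siCEACAM6#3. The groups overlapped, and siCEACAM6#2 replicate 1 was the lowest sample. On the log2 scale HYAL1 differed from NTC by -0.23 with siCEACAM6#2 (SE 0.16, interval -0.58 to 0.12, adjusted p = 0.594) and -0.08 with siCEACAM6#3 (SE 0.16, interval -0.42 to 0.26, adjusted p = 0.867). Leaving out siCEACAM6#2 replicate 1 moved the siCEACAM6#2 value to -0.09, leaving out its replicate 2 moved it to -0.35, and it reached -0.39 on the log2(TPM + 0.1) scale, with no call under any of these. The siCEACAM6#3 value lay between -0.16 and -0.01 when single libraries were left out, again with no call. At this depth the intervals ran as low as -33% and as high as 19.5%.

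HYAL3 is a less well understood relative of these enzymes. Its level was 12, 12.9, 12.1 and 12.5 CPM in NTC, 11.6, 11.9, 9.21 and 11.3 CPM with siCEACAM6#2, and 11.5, 10.9, 10.7 and 14.6 CPM with siCEACAM6#3. All siCEACAM6#2 samples lay below all NTC samples, as did HAS2 (5.42% of all genes tested did so in this direction), whereas siCEACAM6#3 replicate 4 stood above NTC. HYAL3 had a log2 fold change of -0.18 with siCEACAM6#2 (SE 0.10, interval -0.40 to 0.04, adjusted p = 0.487) and -0.07 with siCEACAM6#3 (SE 0.10, interval -0.28 to 0.15, adjusted p = 0.831). The siCEACAM6#2 value was -0.10 without replicate 3 (adjusted p = 0.847), and no other library moved it beyond -0.22 to -0.16. The siCEACAM6#3 value was -0.17 without its own replicate 4 (adjusted p = 0.391), -0.03 without its replicate 2 (adjusted p = 0.962), -0.01 without its replicate 3 (adjusted p = 0.975) and -0.04 without NTC replicate 2 (adjusted p = 0.924).

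TPM gave a larger difference for HYAL3 than the counts. The TPM values were 13.7, 12.6, 11.6 and 14.4 in NTC, 10.1, 10.1, 7.43 and 10.3 with siCEACAM6#2, and 10.6, 8.85, 9.22 and 11.8 with siCEACAM6#3. The siCEACAM6#2 samples lay below NTC, and the highest siCEACAM6#3 sample lay just above the lowest NTC sample. On the log2(TPM + 1) scale, which understates changes of low genes, the difference was -0.43 with siCEACAM6#2 (limma adjusted p = 0.179) and -0.35 with siCEACAM6#3 (adjusted p = 0.278). Dividing the estimated count by TPM gives an index of the length of the transcripts to which the reads were assigned, a measure chosen after these values were seen. Relative to the NTC mean it was 0.937, 1.09, 1.07 and 0.915 in NTC, 1.19, 1.18, 1.29 and 1.17 with siCEACAM6#2, and 1.15, 1.26, 1.18 and 1.22 with siCEACAM6#3. All 8 knockdown samples exceeded all 4 NTC samples, which held in this direction for 0.33% of the 15465 genes compared. The average of both siRNAs was 1.2 times NTC (log2 difference 0.27, SE 0.05, interval 0.15 to 0.38), with an unadjusted p of 0.000481 but an adjusted p of 0.519 in limma over 15465 genes. In that test 0% of genes were called for the average, and 7.57% of genes had an unadjusted p under 0.05. On its own strand HYAL3 shares 232 of its 1967 annotated exon bases with NAA80 and 43 with IFRD2, and the part of these overlaps in the result was not tested.

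**Figure D4:**
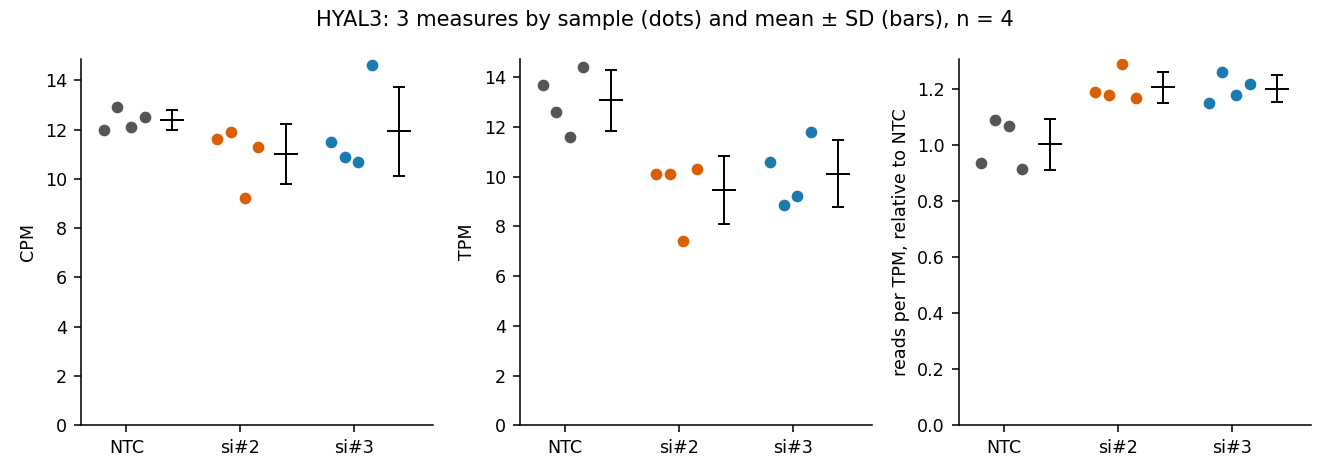
HYAL3 as CPM, TPM and reads per TPM (relative to the NTC mean) in each sample, with group mean ± SD as bars (n = 4; si#2 and si#3 stand for the CEACAM6 siRNAs). CPM overlaps between NTC and siCEACAM6#3, TPM is lower in most knockdown samples, and reads per TPM lies between 1.15 and 1.29 in the knockdown samples against 0.915 to 1.09 in NTC.

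CEMIP2, also called TMEM2, is a transmembrane protein that degrades hyaluronan at the cell surface, and it was the member that differed between the siRNAs. Its level was 20.9, 22, 21 and 18.4 CPM in NTC, 21.8, 24.5, 27.2 and 26.6 CPM with siCEACAM6#2, and 19.6, 20.4, 19.8 and 19.8 CPM with siCEACAM6#3. All siCEACAM6#3 samples lay below all siCEACAM6#2 samples, as they did for 3.34% of all genes tested, and NTC overlapped both. CEMIP2 was 0.797 times as high with siCEACAM6#3 as with siCEACAM6#2 (log2 difference -0.33, SE 0.08, interval -0.49 to -0.16, limma-voom adjusted p = 0.0456). The call lay close to the threshold. It was kept without NTC replicate 4 and without siCEACAM6#2 replicate 1, and it was lost without each of the other 10 libraries, where the adjusted p ran from 0.0504 to 0.146 and the log2 difference from -0.34 to -0.28.

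Against NTC, CEMIP2 had a log2 fold change of 0.28 with siCEACAM6#2 (SE 0.08, interval 0.11 to 0.44), with an unadjusted p of 0.00233 and an adjusted p of 0.0948, short of a call. With siCEACAM6#3 it was -0.05 (SE 0.08, interval -0.22 to 0.12, adjusted p = 0.837). The siCEACAM6#2 difference was called by DESeq2 (adjusted p = 0.0297), with sample quality weights (adjusted p = 0.00975) and without siCEACAM6#2 replicate 1 (adjusted p = 0.0231). These were the only calls, 1 of 12 fits without a single library and 2 of 13 other settings. The adjusted p reached up to 0.324 in the former and 0.483 in the latter. Behind these values stood 404 to 494 counts per NTC sample, 481 to 597 per siCEACAM6#2 sample and 422 to 436 per siCEACAM6#3 sample. The target CEACAM6 also differed between the siRNAs and was 1.28 times as high with siCEACAM6#3 as with siCEACAM6#2 (log2 difference 0.35, SE 0.07, adjusted p = 0.016). That CEACAM6 call was lost without siCEACAM6#2 replicate 3 (adjusted p = 0.0577) and without siCEACAM6#3 replicate 3 (adjusted p = 0.0564), with only the groups compared (adjusted p = 0.0573) and on all TPM scales (adjusted p up to 0.205). The canonical 3′ UTR of CEMIP2 (1831 bases) held neither seed-match site, and an effect of either guide on CEMIP2 was not tested. CEMIP2 lies on chromosome 9 at 71683366 to 71816690 on the minus strand.

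**Figure D5:**
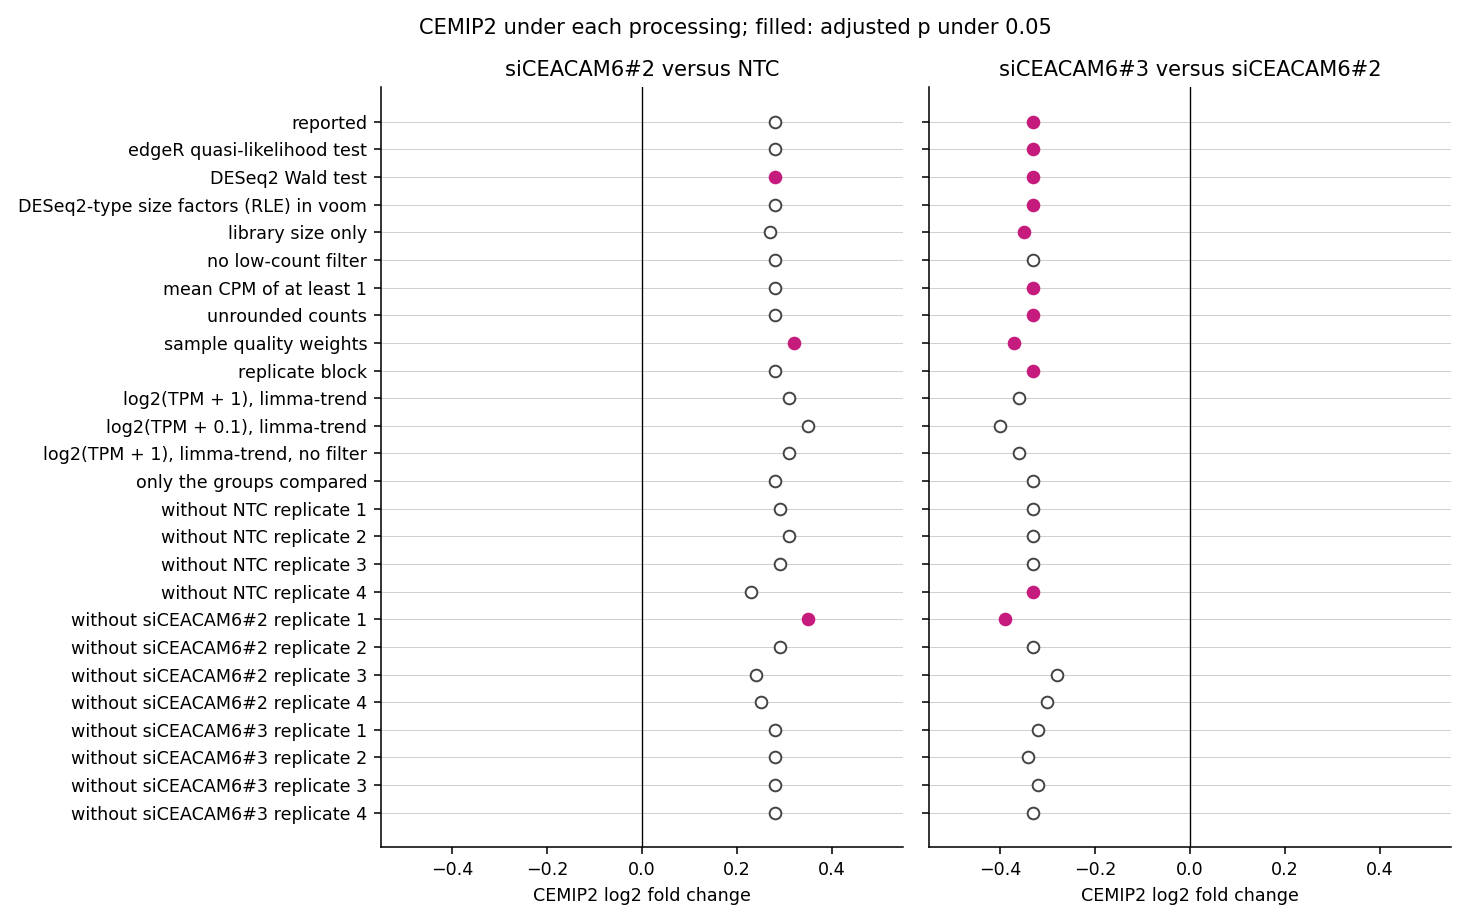
Log2 fold change of CEMIP2 as reported and under 25 other ways of processing the same data, for siCEACAM6#2 versus NTC and siCEACAM6#3 versus siCEACAM6#2, with filled dots for an adjusted p under 0.05. All values are above 0 in the first comparison (0.23 to 0.35) and below 0 in the second (-0.40 to -0.28), while the calls come and go.

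CEMIP, the secreted or cytoplasmic relative of CEMIP2 that promotes hyaluronan breakdown, was present at a similar count but a lower TPM. Its level was 18.9, 19, 19.5 and 18.8 CPM in NTC, 22.1, 16.6, 18.4 and 21.7 CPM with siCEACAM6#2, and 24.7, 19.1, 19.2 and 19.1 CPM with siCEACAM6#3. NTC was tightly grouped, the siCEACAM6#2 samples lay on both sides of it, and siCEACAM6#3 replicate 1 stood apart from the other 3 samples of its group. CEMIP had a log2 fold change of 0.04 with siCEACAM6#2 (interval -0.17 to 0.25, adjusted p = 0.918) and 0.10 with siCEACAM6#3 (interval -0.11 to 0.31, adjusted p = 0.722). The siCEACAM6#3 value was 0.01 without replicate 1. Rises above 23.9% or falls below -11.2% lie outside both intervals. CEMIP lies on chromosome 15 at 80779343 to 80951776 on the plus strand and overlaps MESD on the opposite strand. The genes whose log2 CPM followed CEMIP most closely over the 12 samples, among 9890 genes, were POLR1A (r = 0.916), CCDC117 (r = 0.897) and AGAP1 (r = 0.893). The points share library and depth, and the values are descriptive.

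CD44 was the most abundant and the most even of the 8 genes. It reached 539, 560, 532 and 524 CPM in NTC, 548, 522, 528 and 565 CPM with siCEACAM6#2, and 570, 534, 573 and 560 CPM with siCEACAM6#3. The groups overlapped. CD44 had a log2 fold change of 0.01 with siCEACAM6#2 (SE 0.04, interval -0.09 to 0.10, adjusted p = 0.976) and 0.05 with siCEACAM6#3 (SE 0.04, interval -0.04 to 0.15, adjusted p = 0.64). Falls below -5.88% and rises above 10.7% therefore lie outside the intervals for both siRNAs. Only 3.61% of the 9890 genes varied less within groups. Whether a guide acted on the siCEACAM6#3 seed-match site of CD44 was not tested, and the siCEACAM6#3 interval reached no lower than -2.68%. These values sum all CD44 transcripts, of which GENCODE 44 lists 38, and the standard and variant isoforms were not separated. CD44 lies on chromosome 11 at 35138882 to 35232402 on the plus strand. The genes closest to CD44 over the 12 samples were CLK1 (r = 0.9), FZD6 (r = 0.882) and CROT (r = 0.876), again as a description of samples that share libraries and depth.

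Of 48 further genes of the hyaluronan system, 27 were tested, and 21 were too low, none of them above a mean of 0.247 TPM in NTC. Limma-voom called 0 of the 27 in each of the 4 comparisons (backgrounds as above), while 5, 8, 5 and 9 had an unadjusted p under 0.05 with siCEACAM6#2, siCEACAM6#3, their average and between the siRNAs (backgrounds: 13.6%, 12.5%, 12.9% and 13.3%). The edgeR quasi-likelihood test also called 0 of them in each comparison (background between the siRNAs: 1.57%), and DESeq2 called 0, 1, 1 and 3 (backgrounds: 3.95%, 1.76%, 2.4% and 4.01% of the genes given an adjusted p). Their median log2 fold change was 0.05, 0.03, 0.03 and -0.02 in these comparisons, where it was 0.00 over all genes.

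Among the 8 genes that supply UDP-sugars, 1 had an unadjusted p under 0.05 with siCEACAM6#2 (background: 13.6%) and 3 with siCEACAM6#3 (background: 12.5%). GFPT1, which starts the hexosamine pathway, had a log2 fold change of 0.13 with siCEACAM6#2 (adjusted p = 0.324). Of the 4 tested genes among the other synthase, other hyaluronidases and lysosomal glycosidases, GUSB, the beta-glucuronidase that trims hyaluronan fragments, stood at -0.12 with siCEACAM6#2 (adjusted p = 0.358). HMMR, a hyaluronan-binding protein of the mitotic spindle, was the only other receptor of 7 that was tested. Its level was 54.5 CPM ± 2.88 in NTC, 45.3 CPM ± 6.39 with siCEACAM6#2 and 48 CPM ± 7.48 with siCEACAM6#3 (SD, n = 4), and its log2 fold change was -0.28 (adjusted p = 0.228) and -0.20 (adjusted p = 0.441). The receptors LYVE1 and LAYN and the matrix proteins VCAN and TNFAIP6 were at or near 0.

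The 11 CD44 partners, sheddases, splicing factors and ligands were all tested. With siCEACAM6#2, 1 of them had an unadjusted p under 0.05 (background: 13.6%). With siCEACAM6#3, 5 did, 3 higher and 2 lower (background: 12.5%). The count was 2 for the average (background: 12.9%) and 4 between the siRNAs (background: 13.3%). MMP14, a membrane protease that can cleave CD44, was at 369 to 397 CPM in the NTC samples. The siCEACAM6#2 samples held 400 to 429 CPM and the siCEACAM6#3 samples 410 to 478 CPM. Neither siRNA group overlapped NTC, as held for 5.34% and 2.99% of all genes in this direction. The log2 fold change of MMP14 was 0.11 (interval 0.00 to 0.22, adjusted p = 0.365) and 0.22 (interval 0.11 to 0.33, adjusted p = 0.134), and 0.16 for the average (adjusted p = 0.127). EZR, the ezrin that links CD44 to actin, had a log2 fold change of 0.10 for the average (interval 0.02 to 0.18, adjusted p = 0.249). Of the CD44 sheddases, ADAM10 was 0.23 higher on the log2 scale with siCEACAM6#3 than with siCEACAM6#2 (interval 0.09 to 0.37, adjusted p = 0.103). ADAM17 was -0.27 between the siRNAs (interval -0.44 to -0.10, adjusted p = 0.107) and -0.24 with siCEACAM6#3 versus NTC (adjusted p = 0.233). SPP1, the osteopontin that binds CD44, ranked 16th of all genes in NTC at 6510 TPM ± 549. Its log2 fold change was 0.32 with siCEACAM6#3 (interval 0.10 to 0.55, adjusted p = 0.237) and 0.37 between the siRNAs (interval 0.14 to 0.59, adjusted p = 0.11). Replicates 2, 3 and 4 with siCEACAM6#3 had 9360, 9330 and 9790 CPM of SPP1 while replicate 1 had 6830 CPM, and these 3 libraries also had the higher mitochondrial shares, whose part in the result was not tested.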

How the data were processed

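The authors deposited, for each of 12 samples, estimated counts per gene and TPM per gene, 1 file each. According to the study's methods and the submitters' processing notes, reads were trimmed with Trim Galore 0.6.4 and quantified with kallisto against GENCODE transcripts of GRCh38.p13, and the release is not given in the sources used here. The labels name Oligofectamine and paired-end reads, whereas the methods name RNAiMAX and single-end reads. Estimated counts divide reads among overlapping genes and isoforms.

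Estimated counts were rounded, filtered with filterByExpr by group, scaled by TMM and fitted with limma-voom (R 4.3.3, limma 3.58.1, edgeR 4.0.16) in 1 model of 3 groups with no covariate. Genes were called at a Benjamini-Hochberg adjusted p under 0.05 over 17620 genes. CPM used TMM-scaled library sizes, and intervals are 95% intervals of fitted coefficients. TPM was tested with limma on log2(TPM + 1). Reads per TPM was centred on the median gene of each sample, with at least 10 counts in every sample. DESeq2 1.42.0 and other settings were alternatives. Procedures were tested on simulated data, in which every set change was larger than the limma-voom estimates for the 8 genes. That check does not show how often changes as small as these would be called. Total counts of 21799476 to 22059456 leave counting error largest, among the 8 members, for HYAL1, and several other list genes held fewer counts (HYAL4 had 6 to 20 per sample).

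Members, lists and tests were chosen with earlier results of these data known. Named genes were the 8 members, the target, from the 48-gene list the 3 with the smallest p in a comparison without a call, and the 3 genes most correlated with CD44 and with CEMIP among genes with a mean of at least 10 CPM. LYVE1, LAYN, VCAN, TNFAIP6, HYAL4 and HAS1 were named after their values were seen. Coordinates, 3′ UTRs and sequences came from GENCODE 44 on GRCh38, and siRNA targets from the study's supplementary list.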

Additional observations from a re-analysis of the deposited data

Results flagged for a closer look

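CEMIP in siCEACAM6#3 replicate 1 stood apart at 24.7 CPM from the other 3 samples of its group, which lay between 19.1 and 19.2 CPM (Dixon's Q = 0.974). Among the 27 groups of 4 samples examined in this way, chance alone flags about 1 in 20.

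CEMIP2 with siCEACAM6#3 lay at -0.33 on the log2 scale relative to siCEACAM6#2, a call close to the threshold (limma-voom adjusted p = 0.0456). CEACAM6 lay at 0.35 in the same comparison. The CEMIP2 call was kept in 2 of 12 fits without a single library, and the CEACAM6 call in 10 of 12. In 13 other settings the CEMIP2 call was kept in 8 and the CEACAM6 call in 9. Both differences were tested directly in the model of all 3 groups.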

How the results depend on the processing

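The 32 log2 fold changes of the 8 genes were recomputed under 25 alternatives, which gave 791 values. Of these, 749 kept their direction and their side of the threshold, 15 kept the direction and lost a call, 3 kept the direction and gained one, and 24 changed sign. All of the calls lost or gained were those of CEMIP2. Between the siRNAs, the number of the 8 genes called was 0 instead of 1 without a low-count filter, on either TPM scale, on log2(TPM + 1) with no filter and with only the groups compared, and 0 to 1 when single libraries were left out. With siCEACAM6#2 it was 1 instead of 0 by DESeq2 and with sample quality weights, and 0 to 1 when single libraries were left out.

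Of the 48-gene list, DESeq2 called 1 gene with siCEACAM6#3 (MMP14), 1 for the average (MMP14) and 3 between the siRNAs (ADAM10, ADAM17 and SPP1). Sample quality weights called 1 with siCEACAM6#2 (HMMR), 1 with siCEACAM6#3 (MMP14), 2 for the average (HMMR and MMP14) and 2 between the siRNAs (ADAM10 and SPP1). Leaving out single libraries gave 0 to 2 with siCEACAM6#3, 0 to 1 for the average and 0 to 2 between the siRNAs, and siCEACAM6#3 replicate 1 was the library whose absence gave the highest count each time. The fit with the replicate number as a block called 1 (SPP1) with siCEACAM6#3 and 1 (SPP1) between the siRNAs, and it changed no call of the 8 genes. Same-numbered samples showed little deviation in common: their correlations ran from -0.0541 to 0.185, with 2 of 12 over 0.1. The numbers were therefore not taken as pairs. Both values over 0.1 were between the siRNAs, for replicates 1 and 2. Single genes could still share a deviation. Replicate 1 was the lowest of each group for HAS3 (197, 225 and 248 CPM) and the highest of each for HMMR (57.7, 54.6 and 57.9 CPM). How many genes did so was not counted. Over all genes the block raised the calls with siCEACAM6#3 from 12 to 87, and DESeq2 gave 220, sample quality weights 382. With siCEACAM6#2 the calls went from 221 to 534 by DESeq2, 1120 with weights, 600 with only the groups compared and 5 on log2(TPM + 1). The block gave 284. Between the siRNAs, 259 became 556, 560, 57 and 49 in the same order of settings, and 349 with the block. For the average, 40 became 332 by DESeq2, 899 with weights, 118 with the block, 72 with a mean CPM of at least 1 and 2 on log2(TPM + 1). Leaving out single libraries gave 49 (without siCEACAM6#2 replicate 3) to 364 (without siCEACAM6#3 replicate 4) calls with siCEACAM6#2 and 2 (without siCEACAM6#3 replicate 3) to 258 (without siCEACAM6#3 replicate 1) with siCEACAM6#3. For the average it gave 3 (without NTC replicate 2) to 204 (without siCEACAM6#2 replicate 1), and between the siRNAs 83 (without siCEACAM6#2 replicate 3) to 651 (without siCEACAM6#3 replicate 1). The causes were not tested.

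The values that changed sign were near 0. CEMIP between the siRNAs was -0.03 on log2(TPM + 1), with and without a filter, -0.04 on log2(TPM + 0.1), and -0.03 to 0.12 when single libraries were left out. CEMIP with siCEACAM6#2 ran from -0.02 to 0.12 in the same way. HAS3 between the siRNAs ran from -0.07 to 0.15 without single libraries, and was -0.07 without siCEACAM6#3 replicate 2. HYAL2 without single libraries ran from -0.03 to 0.01 with siCEACAM6#2, -0.02 to 0.12 with siCEACAM6#3, -0.01 to 0.06 for the average and -0.01 to 0.12 between the siRNAs, and was -0.02 for the average on all TPM scales. CD44 with siCEACAM6#2 was -0.01 with library size only and -0.02 to 0.03 without single libraries. CD44 between the siRNAs was 0.00 on all TPM scales. The reads-per-TPM difference of HYAL3, chosen after seeing the data, stayed between 0.22 and 0.31 for the average without single libraries, with adjusted p from 0.374 to 0.706.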
